A study of Mus musculus with 10 samples.

Results

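The response of naive CD8+ T cells to 2 h of stimulation was taken as the comparison of the 2 libraries made 120 min after stimulation with the 4 libraries at 0 min, 6 of the 10 libraries of the series. The cells came from spleens of female C57Bl/6 mice aged 6 weeks that were either wild type (WT) or Ikaros-Zn4-/-. They had been enriched by negative selection and then sorted by flow cytometry for CD8 and for the surface phenotype of naive cells, which includes low or absent CD44. Cells at 0 min were used directly, and cells at 120 min had been stimulated through CD3 and CD28 with plate-bound antibodies. At 0 min there were 2 WT and 2 Ikaros-Zn4-/- libraries and at 120 min 1 of each genotype. The 4 libraries at 30 min entered the estimate of spread for the comparisons within a genotype only. Whether replicates came from separate mice is not in the labels. The p-values therefore reflect the spread among the libraries at hand, which may be technical. No group analysed here was kept for 120 min without antibodies, so an effect of the antibodies and an effect of time in culture cannot be told apart. Genotype was a term of the model because the Ikaros-Zn4-/- cells carry the alteration before stimulation too. Where resting values are given as a range, as in 10.6–19.4 RPKM for Slfn5, it gives the lowest and highest of the 4 resting libraries. A range given for 120 min holds the lower and the higher of the 2 stimulated libraries, whichever their genotype.

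The T cell receptor (TCR) recognises peptide bound to major histocompatibility complex (MHC) molecules and signals through the CD3 chains, and CD28 adds a costimulatory signal. Together they activate the kinase ERK, calcium and calcineurin, and protein kinase C, which lead to the AP-1, NFAT and NF-kB transcription factors. Immediate early genes are transcribed first because their factors already lie in the resting cell, and genes that need newly made factors, as well as the growth program that precedes division, follow. Ikaros, encoded by Ikzf1, is a zinc finger DNA-binding protein of lymphocytes that is known to restrain activation, and its zinc finger 4 belongs to the N-terminal fingers that bind DNA.

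Expression was given as RPKM, reads per kilobase of transcript, scaled to the depth of the library. Read depth, recovered from the steps of the values, was 4.504 to 13.3 M in the libraries at 0 min and 10.5 and 9.20 M in the WT and Ikaros-Zn4-/- libraries at 120 min. Where depth was lowest, 1 read on 1 kb of transcript was worth 0.222 RPKM. Across genes Pearson's r of the log2 values was 0.970 and 0.961 between the libraries of a group at 0 min, 0.959 between the 2 libraries at 120 min and 0.810 to 0.844 between the times. Changes are differences of log2(RPKM + 1) after each library was centred on its median deviation, so they are relative to the median gene and understate the fold change of genes with low RPKM. On the deposited scale, without centring, the median gene was lower by 0.32 at 120 min (median log2 change -0.32). Tests used limma with a Benjamini-Hochberg adjusted p below 0.05 over all 12173 genes tested, two-sided, and "called" means past that threshold. Where a gene rose or fell by a number, it is the log2 change.

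The labelled cell type was checked against its defining markers. Gene positions here are those of GENCODE M21 on GRCm38. Cd8a, the alpha chain of the CD8 coreceptor (chromosome 6, 71373427 to 71379173), had 389.6 and 436 RPKM in WT and 511 and 456 RPKM in Ikaros-Zn4-/- cells at 0 min, against 47.5 and 52.2 RPKM at 120 min. Cd8b1, the beta chain, had 727–983 RPKM at 0 min. Ikzf1 had 134 and 148 RPKM in WT and 206 and 226 RPKM in Ikaros-Zn4-/- cells at 0 min and 149.9 and 214 RPKM at 120 min. A value for a whole gene cannot show whether an exon is altered. Of 12 B cell markers 6 were in the table, with a summed level of 308 to 413 RPKM at 0 min and 79.8 to 88.4 RPKM at 120 min. Most of it was Ighm, the immunoglobulin mu heavy chain, at 269.7–396 RPKM at 0 min, while Cd79a, a chain every B cell receptor needs, was at 0.152–0.309 RPKM. Of the 5 B cell markers tested, 2 were called lower at 120 min and 2 higher (3 and 2 on the deposited scale), where 28.1% of all genes tested were called lower and 29.2% higher. Ighm was at 68.01 RPKM in WT and 38.7 RPKM in Ikaros-Zn4-/- cells at 120 min (log2 change -2.34), and Cd79b, the partner chain of Cd79a, went from 6.36–14.8 to 1.75 and 4.93 RPKM (-1.21). Cd79a went the other way, to 3.79 RPKM in WT and 6.26 RPKM in Ikaros-Zn4-/- cells (2.59), and it passed the filter on low values only through these libraries. Cd74, the invariant chain of MHC class II, had 0.793 and 1.04 RPKM in WT and 20.3 and 23.3 RPKM in Ikaros-Zn4-/- cells at 0 min, against 3.04 and 41.4 RPKM at 120 min (1.31). Of 10 natural killer cell markers 1, Gzma, was in the table, at 0 to 5.56 RPKM at 0 min and 0 to 2.10 RPKM at 120 min. The 4 myeloid markers in the table, of 12, summed to 30.7 to 33.4 and 28.8 to 54.7 RPKM, and the 2 CD4 and regulatory T cell markers, of 7, to 5.49 to 11.6 and 4.74 to 5.11 RPKM. None of 10 erythroid and platelet markers was in the table. In bulk samples fewer cells of a type and less RNA per cell cannot be told apart, and the part of other cells in the results below was not tested.

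Of the 12173 genes tested, 6972 were called (57.3%), 3551 higher at 120 min (29.2%) and 3421 lower (28.1%). At an unadjusted p below 0.05 there were 7627. With a change of at least 2-fold, 1779 genes (14.6%) were called higher and 1605 (13.2%) lower, and with at least 4-fold 320 and 207. The split depends on the scaling, since on the deposited scale 2366 genes (19.4%) were called higher and 4947 (40.6%) lower, and the share of calls that were higher went from 50.9% to 32.4%. As a description with no test, genes called higher held 24.3% to 25.2% of the summed RPKM in the libraries at 0 min and 47.8% to 48.2% in those at 120 min. Genes called lower held 32.3% to 33.6% and 12.3% to 13.3%. Since 57.3% of the tested genes passed, the share of a gene list that did so is read against these percentages. WT 0 min replicate 1 was the highest resting library for 3 genes that were picked out after their values were seen, and not only for them. Fosl2, Nfkbid, Tob1 and Cd69, named below, were also highest there at rest, whereas Irf4 and Tnf were not. In WT 0 min replicate 1, Nr4a2 was at 13.03 RPKM against 0.9299 to 2.85 RPKM in the other resting libraries. Jun was at 492 against 98.4 to 190.2 RPKM, and the heat shock gene Hspa1b at 388 against 12.5 to 72.01 RPKM. Other heat shock genes were lowest in that library, such as the co-chaperone genes Stip1, at 73.97 against 117 to 152 RPKM, and Chordc1, at 22.6 against 32.5 to 47.8 RPKM.

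**Figure D1:**
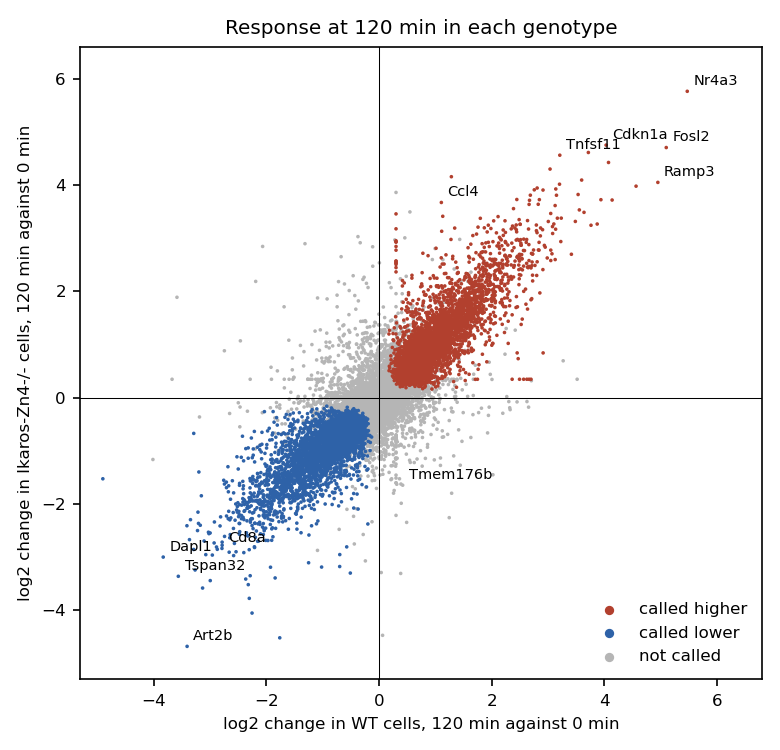
Log2 change from 0 to 120 min in WT cells (x axis) and in Ikaros-Zn4-/- cells (y axis), 1 point per gene tested, coloured by the call of the comparison over both genotypes. Called genes lie in the upper right and lower left, with Nr4a3 at the upper end and Art2b at the lower end, and Tnfsf11 and Ccl4 lie above the diagonal.

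The largest rise was that of Nr4a3, an orphan nuclear receptor induced by antigen receptor signals (chromosome 4, 48045153 to 48086447). It had 2.41 and 2.88 RPKM in WT and 2.44 and 3.49 RPKM in Ikaros-Zn4-/- cells at 0 min, against 129.9 and 167 RPKM at 120 min. The log2 change was 5.62 (SE 0.14, adjusted p = 8.23e-05). Nr4a3 and the other largest rises and falls were picked among called genes whose groups do not overlap, so their separation follows from the choice. Fosl2, which encodes the AP-1 subunit Fra-2 (chromosome 5, 32135801 to 32157842), had 8.78 and 5.57 RPKM in WT and 7.62 and 6.03 RPKM in Ikaros-Zn4-/- cells at 0 min, against 222 and 159 RPKM at 120 min (log2 change 4.90, SE 0.22, adjusted p = 9.58e-05). Cdkn1a, the cyclin-dependent kinase inhibitor p21 (chromosome 17, 29090976 to 29100727), had 0.377 and 0.0506 RPKM in WT and 0.135 and 0.0999 RPKM in Ikaros-Zn4-/- cells at 0 min, against 14.95 and 22.7 RPKM at 120 min. It was close to undetected in every resting library and rose by 4.39 (SE 0.24, adjusted p = 9.91e-05). Its mean at rest was 0.166 RPKM, so it passed the filter on low values only through the libraries at 120 min. Crem, a cyclic AMP-responsive transcription factor gene, went from 1.14 and 0.6298 RPKM in WT and 1.06 and 0.979 RPKM in Ikaros-Zn4-/- cells to 34.8 and 24.1 RPKM (log2 change 4.27, SE 0.21, adjusted p = 9.58e-05). Nr4a2, a paralog of Nr4a3, rose from 0.9299–13.03 to 51.5 and 57.4 RPKM (log2 change 4.17, SE 0.76, adjusted p = 0.00414). Its change was 4.83 without WT 0 min replicate 1, the resting library in which it was high. Leaving out the Ikaros-Zn4-/- library at 120 min ended the Nr4a2 call (adjusted p = 0.0616).

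Ramp3, which encodes a protein that modifies the ligand preference of calcitonin-family receptors, had 2.497 and 6.11 RPKM in WT and 1.68 and 1.61 RPKM in Ikaros-Zn4-/- cells at 0 min, against 124 and 33.5 RPKM at 120 min. The WT library was the higher at 120 min (log2 change 4.50, SE 0.31, adjusted p = 0.000146). Tnfsf11, the gene of the cytokine RANKL (chromosome 14, 78277445 to 78308043), had 0.125 and 0.0503 RPKM in WT and 3.12 and 2.78 RPKM in Ikaros-Zn4-/- cells at 0 min, against 7.16 and 72.5 RPKM at 120 min, so the Ikaros-Zn4-/- cells were higher at both times (log2 change 3.89, SE 0.30, adjusted p = 0.000192). Emp1, a membrane protein gene, showed the same order, with 0.5197 and 0.222 RPKM in WT and 2.22 and 1.46 RPKM in Ikaros-Zn4-/- cells at 0 min, against 8.07 and 42.7 RPKM at 120 min (log2 change 3.67, SE 0.32, adjusted p = 0.000255). The other large rises were Zc3hav1l, a relative of the zinc finger antiviral protein gene, from 1.54–2.15 to 40.4 and 44.9 RPKM, Dennd4a, which encodes an activator of Rab GTPases, from 2.99–4.69 to 43.5 and 74.1, and Tgif1, a homeobox repressor, from 6.47–11.9 to 106 and 127. Pygm, glycogen phosphorylase, rose from 1.33–2.86 to 27.2 and 33.4 RPKM and Phf13, a reader of histone H3 methylation, from 5.82–6.95 to 56.1 and 89.1 RPKM. Gm16853, annotated as an antisense gene, rose from 0.113–0.469 to 12.1 and 14.9 RPKM. Strand was not marked in these libraries, so its reads may belong to a gene on the opposite strand. Rn7sk, the 7SK RNA that holds the elongation factor P-TEFb inactive, rose from 1.70–6.71 to 41.2 and 55.1 RPKM. The rule of under 1 RPKM in every resting library and at least 10 RPKM in both stimulated ones was met by 2 genes. These were Cdkn1a and Gm16853, the on set. Both passed the filter on low values only through the libraries at 120 min.

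**Figure D2:**
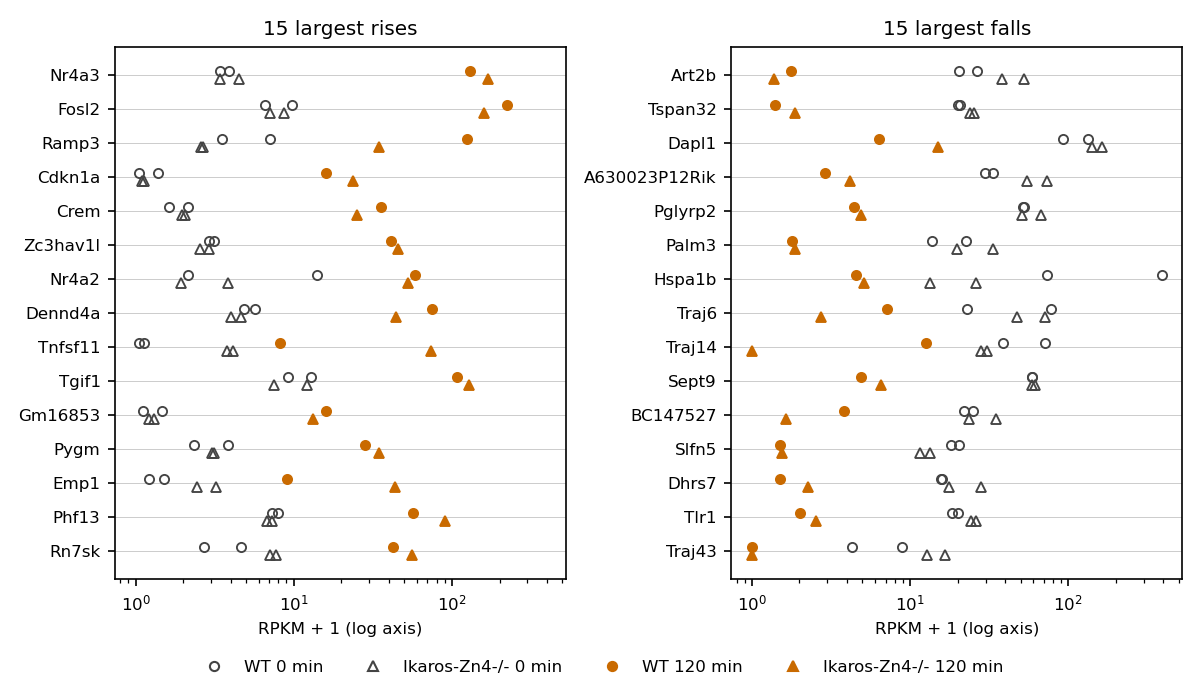
RPKM + 1 in each of the 6 libraries (log axis) for the 15 genes with the largest rises and the 15 with the largest falls among called genes whose groups do not overlap. Open symbols are libraries at 0 min and filled symbols libraries at 120 min, circles WT and triangles Ikaros-Zn4-/-; Nr4a3 separates the times most among the rises, and Hspa1b varies most among the resting libraries.

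The largest fall was that of Art2b, an ADP-ribosyltransferase anchored in the T cell surface (chromosome 7, 101576970 to 101585600). It had 19.3 and 25.3 RPKM in WT and 37.3 and 51.6 RPKM in Ikaros-Zn4-/- cells at 0 min, against 0.766 and 0.375 RPKM at 120 min (log2 change -4.05, SE 0.30, adjusted p = 0.000169). Tspan32, a tetraspanin (chromosome 7, 143005046 to 143019644), had 19.8 and 19.1 RPKM in WT and 24.3 and 22.8 RPKM in Ikaros-Zn4-/- cells at 0 min, against 0.401 and 0.877 RPKM at 120 min, and the resting libraries lay close together (log2 change -3.46, SE 0.12, adjusted p = 9.58e-05). Dapl1, a gene typical of naive T cells, fell from 91.5–162 to 5.33 RPKM in WT and 13.9 RPKM in Ikaros-Zn4-/- cells (log2 change -3.42, SE 0.22, adjusted p = 0.00012). Sept9, a septin of the cytoskeleton, fell from 57.9–60.3 to 3.903 and 5.52 RPKM, and Pglyrp2, an amidase that cleaves peptidoglycan, from 50.3–66.5 to 3.405 and 3.88 RPKM. Tlr1, a receptor for bacterial lipoproteins, fell from 17.4–25.3 to 1.01 and 1.56 RPKM and Slfn5, a Schlafen family member, from 10.6–19.4 to 0.516 and 0.540 RPKM. Also among the 15 were A630023P12Rik (log2 change -3.36), BC147527 (-3.04), Palm3 (-3.22) and Dhrs7 (-3.02). Hspa1b, an inducible Hsp70, went from 12.5–388 RPKM at rest to 3.57 and 4.11 RPKM (log2 change -3.22, SE 0.94, adjusted p = 0.0263). The Hspa1b change was -2.44 without WT 0 min replicate 1 and its call was lost without the WT library at 120 min (adjusted p = 0.292). Hspa1b and Hspa1a are near-identical, so reads may be split between them and the value is uncertain. The other 3 entries are joining segments of the TCR alpha locus counted as genes of their own, Traj6, Traj14 and Traj43. Their models are short, Traj43 was listed at 0 in both libraries at 120 min and Traj14 in 1, and the Traj6 call was lost without the Ikaros-Zn4-/- library at 120 min (adjusted p = 0.0753).

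The reverse rule, at least 10 RPKM in every resting library and under 1.5 RPKM in both stimulated ones, was met by 10 genes, the off set. They were Art2b, Palm3, Tspan32, Dhrs7 and Slfn5 as above, the Rab GTPase gene Rab37 (12.8–16.2 to 1.02 and 1.203 RPKM), Phf11b (10.3–12.98 to 0.0804 and 0.918), Them6 (11.98–18.2 to 0.961 and 1.096), the cytochrome gene Cyb561a3 (10.8–13.2 to 1.47 and 1.49) and Trmt61a (10.4–14.5 to 1.096 and 1.16), a subunit of the tRNA methyltransferase that modifies adenosine in tRNA. Palm3 (chromosome 8, 84021471 to 84030295) overlaps the end of Il27ra (84030294 to 84042589), which lies on the opposite strand and also fell. Strand was not marked, so part of the Palm3 reads may come from Il27ra, which was not tested. The on and off sets were chosen by their values, so no test is given for them. On and off are names for RNA levels here, and transcription was not measured.

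The signalling genes were examined next, in the order from the first transcripts to the regulators of the cascade. Numbers of list members called are to be set against 29.2% called higher and 28.1% lower over all genes. Of the immediate early genes, 17 of 27 were called higher and 2 lower (median 1.75; 17 and 3 on the deposited scale). Nr4a3, Fosl2 and Nr4a2 above had the largest rises of this list. The members called lower were Srf, the serum response factor (25.5–36.4 to 14.1–14.8 RPKM), and Jun, an AP-1 subunit, with 492 and 190.2 RPKM in WT and 98.4 and 116 RPKM in Ikaros-Zn4-/- cells at 0 min, against 47.3 and 42.7 RPKM at 120 min (log2 change -1.66, SE 0.46, adjusted p = 0.0222). The Jun change was -1.25 without WT 0 min replicate 1, and its call was lost without the WT library at 120 min (adjusted p = 0.247). Without WT 0 min replicate 1 the list had 19 called higher and 3 lower. For MAP kinase feedback regulators, 8 of 16 were called higher and 1 lower (median 0.68; 6 and 4 on the deposited scale). Errfi1, an inhibitor of epidermal growth factor receptor family kinases, rose from 1.55–3.25 to 19.01 and 34.5 RPKM (log2 change 3.33, SE 0.31, adjusted p = 0.000327). The dual specificity phosphatase genes Dusp5, whose product acts on nuclear ERK, and Dusp16, whose product acts on JNK and p38, rose by 2.78 and 2.60. Dok2, an adaptor that dampens Ras signalling, fell from 25.2–28.6 to 4.42 and 4.69 RPKM (log2 change -1.97, SE 0.10, adjusted p = 9.8e-05).

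Among NF-kB subunits and regulators 16 of 22 were called higher and 2 lower (median 1.27; 14 and 4 on the deposited scale). The inhibitor-like gene Nfkbid, which encodes the nuclear protein IkBNS, had 43.1 and 27.5 RPKM in WT and 21.9 and 20.1 RPKM in Ikaros-Zn4-/- cells at 0 min, against 181 and 126 RPKM at 120 min (log2 change 2.77, SE 0.21, adjusted p = 0.000171). Rel, the c-Rel subunit, had 10.7 and 8.96 RPKM in WT and 7.29 and 9.84 RPKM in Ikaros-Zn4-/- cells at 0 min, against 56.7 and 42.8 RPKM at 120 min (log2 change 2.64, SE 0.15, adjusted p = 0.000111), and Tnip1, a partner of the deubiquitinase A20, had 59.5 and 64.5 RPKM in WT and 67.5 and 85.4 RPKM in Ikaros-Zn4-/- cells at 0 min, against 209 and 357 RPKM at 120 min (log2 change 2.30, SE 0.16, adjusted p = 0.000139). In each of the 3 genes the 2 stimulated libraries lay above all resting ones. The genes were picked among those called higher, and the share of all tested genes that separated this way is not given here. The kinase subunits moved the other way. Ikbkg, the NEMO scaffold of the IkB kinase, went from 8.203–9.64 to 0.9396 and 0.965 RPKM (log2 change -2.02, SE 0.12, adjusted p = 0.000116), and Ikbkb, its catalytic beta subunit, from 24.1–26.4 to 9.86 and 11.4 RPKM (log2 change -0.86, SE 0.10, adjusted p = 0.000817).

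The NF-kB site was searched in the promoters of this list because NF-kB genes are known to be targets of NF-kB itself. Whether the site has a part in the rises was not tested. Its share among list members not called higher was not computed. Promoter sequences were those of RefSeq on GRCm38.p6, the 250 bases before the start nearest to the annotated gene start, and 8041 of the tested genes had one. Motifs were searched on both strands, with no account of overlap with other motifs, and a match is a description of letters only. In all 6 motifs were searched, the others being the interferon element below, the cyclic AMP element (CRE), AP-1 site, CArG box and E-box. Of the 13 promoters of immediate early genes called higher, 0 held the CRE, the AP-1 site or the CArG box. The NF-kB site and the E-box were in 3 each and the interferon element in 1. Among promoters of genes called and at least 4-fold higher the E-box was the most frequent, at 14.1% against 8.79% for tested genes. The NF-kB site was present in 6 of the 13 promoters of list members called higher (46.2%). It was in 8.66% of the promoters of tested genes, 9.42% of those of genes called higher, 12.3% of those of genes called and at least 4-fold higher, and 7.25% of all 32851 promoters. The 5 members with a match and the largest rises are shown as the letters behind that share, 5′ to 3′ on the strand of the gene. Capitals mark every base covered by a match on either strand within the window shown. They are Rel (chr11:23771022-23771091, minus strand), Tnip1 (chr11:54962959-54963028, minus strand), Tnfaip3 (chr10:19015496-19015565, minus strand), Nfkbia (chr12:55492648-55492706, minus strand) and Nfkb2 (chr19:46304668-46304736, plus strand). The Nfkbia window holds 1 match, on the opposite strand, which appears as its reverse complement. The Tnfaip3 window holds 1 match, which reads as the motif on both strands. The Rel window holds 2 overlapping matches and the Tnip1 window 3. The Nfkb2 window holds 3 matches, of which 2 overlap.
Rel: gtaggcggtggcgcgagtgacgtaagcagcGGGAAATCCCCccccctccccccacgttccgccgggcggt
Tnip1: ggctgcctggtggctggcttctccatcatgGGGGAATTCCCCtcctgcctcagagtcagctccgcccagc
Tnfaip3: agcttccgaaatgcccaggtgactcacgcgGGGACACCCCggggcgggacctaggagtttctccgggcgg
Nfkbia: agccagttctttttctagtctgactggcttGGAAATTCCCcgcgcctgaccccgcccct
Nfkb2: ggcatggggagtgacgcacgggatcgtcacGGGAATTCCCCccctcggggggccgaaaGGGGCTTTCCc

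Tnfaip3, Nfkbia and Nfkb2 were named after their values were seen, because their promoters hold the site. Tnfaip3, the deubiquitinase A20 that limits NF-kB signalling, had 138 and 84.4 RPKM in WT and 142 and 58.2 RPKM in Ikaros-Zn4-/- cells at 0 min, against 309.9 and 481 RPKM at 120 min (log2 change 2.27, SE 0.43, adjusted p = 0.00481). Nfkbia, the inhibitor IkB-alpha, had 173 and 165 RPKM in WT and 121 and 128 RPKM in Ikaros-Zn4-/- cells at 0 min, against 499.9 and 584 RPKM at 120 min (log2 change 2.22, SE 0.18, adjusted p = 0.000201). Nfkb2, which encodes the p100 precursor, had 33.1 and 39.1 RPKM in WT and 35.7 and 48.7 RPKM in Ikaros-Zn4-/- cells at 0 min, against 89.1 and 59.4 RPKM at 120 min (log2 change 1.22, SE 0.20, adjusted p = 0.00277). Both stimulated libraries were above all resting ones for each of the 3 genes. These too were picked among genes called higher, and the share of all tested genes that separated this way is not given here.

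Of the activation transcription factors, 11 of 19 were called higher and 2 lower (median 1.01; 11 and 3 on the deposited scale). Stat5a, whose product carries signals of interleukin 2 and related cytokines, had 13.9 and 12.3 RPKM in WT and 13.01 and 13.4 RPKM in Ikaros-Zn4-/- cells at 0 min, against 121 and 71.5 RPKM at 120 min (log2 change 3.06, SE 0.18, adjusted p = 0.000113). Irf4, a factor whose level is known to follow TCR signal strength, rose from 1.41–9.05 to 26.1 and 43.05 RPKM (log2 change 2.86, SE 0.38, adjusted p = 0.00118). Id2, an inhibitor of E proteins, fell from 81.2–92.5 to 20.7 and 32.6 RPKM (log2 change -1.39, SE 0.18, adjusted p = 0.00115). Eomes, a T-box factor of memory cells, had 9.39 and 6.82 RPKM in WT and 23.01 and 28.6 RPKM in Ikaros-Zn4-/- cells at 0 min, against 1.903 and 10.6 RPKM at 120 min, and its call was lost without the WT library at 120 min (adjusted p = 0.0512). Within each genotype Eomes was lower at 120 min than at rest, but the Ikaros-Zn4-/- value at 120 min lay above the WT resting values.

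**Figure D3:**
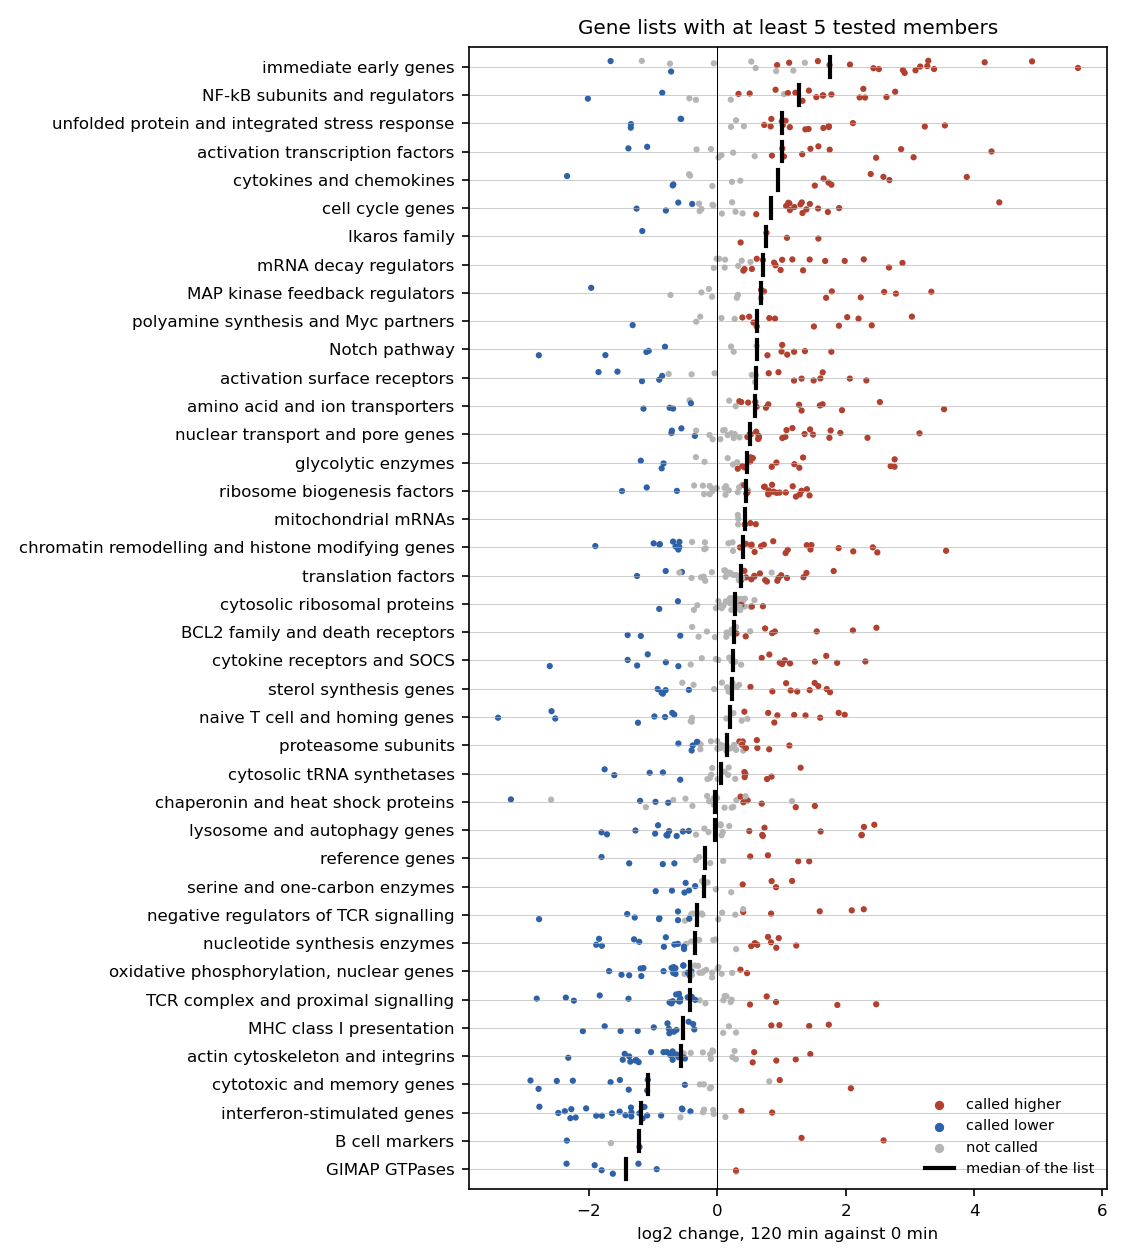
Log2 change from 0 to 120 min of each tested member (points, coloured by call) of the gene lists with at least 5 tested members, ordered by the list's median (black bars). The immediate early genes have the highest median (1.75), the GIMAP GTPases the lowest (-1.43), and most lists hold called members in both directions.

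Among secreted products, cytokines and chemokines, 8 of 16 were called higher and 3 lower (median 0.94; 8 and 4 on the deposited scale). Tnf, tumour necrosis factor, had 6.48 and 6.25 RPKM in WT and 9.29 and 10.3 RPKM in Ikaros-Zn4-/- cells at 0 min, against 40.8 and 48.9 RPKM at 120 min (log2 change 2.68, SE 0.11, adjusted p = 9.58e-05). Ccl3, a chemokine for T cells and macrophages, had 0.122 and 0 RPKM in WT and 0.0979 and 2.03 RPKM in Ikaros-Zn4-/- cells at 0 min, against 1.99 and 13.9 RPKM at 120 min, and without the Ikaros-Zn4-/- library at 120 min its call was lost (adjusted p = 0.0741). Flt3l, a growth factor for dendritic cells, fell from 14.1–17.6 to 1.39 and 1.87 RPKM (log2 change -2.34, SE 0.16, adjusted p = 0.000148). Lta, lymphotoxin alpha, went from 9.03–11.2 to 4.16 and 4.68 RPKM, a call lost without the Ikaros-Zn4-/- library at 120 min (adjusted p = 0.0561). For activation surface receptors, 9 of 20 were called higher and 5 lower (median 0.60; 8 and 7 on the deposited scale). Tnfrsf1b, a receptor for tumour necrosis factor, rose from 15.8–29.6 to 83.7 and 95.8 RPKM (log2 change 2.32, SE 0.15, adjusted p = 0.000124) and Tigit, an inhibitory receptor, from 0.701–2.13 to 4.51 and 9.10 RPKM (log2 change 2.06, SE 0.31, adjusted p = 0.00188). Cd69, the early activation marker, was already at 92.05–196 RPKM in the resting libraries and at 312 and 401 RPKM at 120 min (log2 change 1.64, SE 0.34, adjusted p = 0.00692). That call was lost without the Ikaros-Zn4-/- library at 120 min (adjusted p = 0.0969). Btla, an inhibitory receptor, fell from 11.6–13.9 to 2.603 and 2.74 RPKM, Cd160 from 7.56–11.7 to 0.973 and 1.48 RPKM and Cd27, a costimulatory receptor of naive cells, from 104–157 to 37.1 and 51.4 RPKM.

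Receptors for cytokines divided. Of that list with the SOCS genes, 10 of 24 were called higher and 6 lower (median 0.25; 8 and 8 on the deposited scale). Ifngr1, the ligand-binding chain of the interferon gamma receptor, had 52.2 and 53.7 RPKM in WT and 24.3 and 26.8 RPKM in Ikaros-Zn4-/- cells at 0 min, against 176 and 126 RPKM at 120 min (log2 change 2.31, SE 0.15, adjusted p = 0.000122). Tgfbr1 and Il21r rose by 1.87 and 1.70. Il27ra, the receptor of interleukin 27, had 183 and 172 RPKM in WT and 192 and 164 RPKM in Ikaros-Zn4-/- cells at 0 min, against 22.2 and 22.5 RPKM at 120 min (log2 change -2.61, SE 0.12, adjusted p = 9.58e-05), and Il2rg, the common gamma chain, fell from 166–199 to 53.6 and 56.8 RPKM (log2 change -1.40, SE 0.11, adjusted p = 0.000184).

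Of the TCR complex and proximal signalling genes, 5 of 28 were called higher and 16 lower (median -0.43; 3 and 18 on the deposited scale). Cd8a fell by 2.81 (SE 0.11, adjusted p = 9.58e-05) and Cd8b1 by 1.83 (SE 0.12, adjusted p = 0.00012). Cd3g had 364 and 410.2 RPKM in WT and 412 and 403 RPKM in Ikaros-Zn4-/- cells at 0 min, against 56.8 and 65.2 RPKM at 120 min (log2 change -2.36, SE 0.11, adjusted p = 9.58e-05). Cd3e, likewise a CD3 chain, had 224 and 252 RPKM in WT and 254 and 260.2 RPKM in Ikaros-Zn4-/- cells at 0 min, against 47.03 and 35.9 RPKM at 120 min (log2 change -2.24, SE 0.13, adjusted p = 0.000113). Among the 5 members called higher were genes of signal transmission. Sos1, the exchange factor that activates Ras, rose from 5.95–6.86 to 29.5 and 34.998 RPKM (log2 change 2.48, SE 0.12, adjusted p = 9.58e-05), and Bcl10, the adaptor between CARMA1 and NF-kB, from 27.1–40.1 to 98.1 and 99.5 RPKM (log2 change 1.87, SE 0.12, adjusted p = 0.000117). Among negative regulators of TCR signalling, 5 of 22 were called higher and 8 lower (median -0.31; 4 and 13 on the deposited scale). The ubiquitin ligase gene Cblb, a brake on costimulation-independent activation, had 21.8 and 23.9 RPKM in WT and 25.2 and 25.1 RPKM in Ikaros-Zn4-/- cells at 0 min, against 81.8 and 86.7 RPKM at 120 min (log2 change 2.10, SE 0.09, adjusted p = 9.58e-05). Rc3h1, which encodes the RNA-binding ligase Roquin-1, rose by 2.28, and the phosphatase gene Ptpn22 went from 74.9–92.2 to 205–217 RPKM. Sit1, a transmembrane adaptor, fell from 30.6–77.2 to 4.08 and 6.37 RPKM (log2 change -2.78, SE 0.16, adjusted p = 0.000109), and the phosphatase gene Ptpn6 (SHP-1) and the surface receptor gene Cd6 fell by 1.29 and 1.40.

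Naive T cell and homing genes had no single direction, since 9 of 24 were called higher and 8 lower (median 0.20; 8 and 10 on the deposited scale), and after quantile normalization 8 were higher and 10 lower. Without the Ikaros-Zn4-/- library at 120 min 5 were lower. Tob1 had the largest rise of the list, from 11.0–44.97 to 70.05 and 71.7 RPKM (log2 change 1.98, SE 0.37, limma, adjusted p = 0.0045). The Tob1 call was lost without the Ikaros-Zn4-/- library at 120 min. Ccr9, a gut-homing chemokine receptor, fell from 54.4–78.1 to 5.25 and 10.7 RPKM (log2 change -2.58, SE 0.16, adjusted p = 0.000117). Klf3, a Krüppel-like repressor, rose from 54.9–98.2 to 212 and 239 RPKM (log2 change 1.89, SE 0.16, adjusted p = 0.000235), and Satb1, a chromatin organiser, from 37.3–42.9 to 96.2 and 99.7 RPKM (adjusted p = 0.000113). Of cytotoxic and memory genes, 2 of 17 were called higher and 10 lower (median -1.08; 2 and 10 on the deposited scale). Nkg7, a cytotoxic granule protein, had 250.3 and 275 RPKM in WT and 402 and 367 RPKM in Ikaros-Zn4-/- cells at 0 min, against 19.1 and 55.9 RPKM at 120 min (log2 change -2.91, SE 0.23, adjusted p = 0.000191). Prf1, perforin, fell from 27.1–38.8 to 2.59 and 3.29 RPKM (log2 change -2.79, SE 0.16, adjusted p = 0.000112) and Cst7, a protease inhibitor of granules, from 40.3–61.7 to 3.19 and 12.7 RPKM (adjusted p = 0.000614). The 2 members called higher were Srgn, serglycin, the proteoglycan that packs granule proteins (43.2–87.02 to 188–263 RPKM), and Il2rb, a chain of the interleukin 2 and interleukin 15 receptors. Il2rb had 81.02 and 82.4 RPKM in WT and 189 and 203 RPKM in Ikaros-Zn4-/- cells at 0 min, against 181 and 219 RPKM at 120 min. Within each genotype it was higher at 120 min, but the WT value at 120 min lay below the Ikaros-Zn4-/- resting values.

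Of interferon-stimulated genes, 2 of 32 were called higher and 24 lower (median -1.19; 1 and 25 on the deposited scale). Oas3, an oligoadenylate synthetase (chromosome 5, 120753098 to 120777661), had 20.6 and 20.4 RPKM in WT and 18.97 and 20.8 RPKM in Ikaros-Zn4-/- cells at 0 min, against 1.18 and 1.81 RPKM at 120 min (log2 change -2.77, SE 0.14, adjusted p = 9.58e-05). Zbp1, a sensor of Z-form nucleic acids, had 40.6 and 42.3 RPKM in WT and 44.03 and 45.2 RPKM in Ikaros-Zn4-/- cells at 0 min, against 4.72 and 7.02 RPKM at 120 min (log2 change -2.38, SE 0.13, adjusted p = 9.82e-05). Oas2 fell from 12.3–35.2 RPKM to 0.942 RPKM in WT and 4.17 RPKM in Ikaros-Zn4-/- cells (log2 change -2.48, SE 0.20, adjusted p = 0.000223), and near-identical Oas paralogs may share reads. The 2 members called higher were Stat2, a subunit of the factor that interferon activates, at 0.85 (adjusted p = 0.00557) and Parp14, an ADP-ribosyltransferase, at 0.38 (adjusted p = 0.0349). The Stat2 call was lost without the Ikaros-Zn4-/- library at 120 min (adjusted p = 0.0747), and the Parp14 call on the deposited scale (adjusted p = 0.74) and without any 1 library other than the WT library at 120 min.

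The element through which these genes are known to respond to interferon is the interferon-stimulated response element (ISRE), searched here as GAAA, any 2 bases and GAAA. It was in 6 of the 16 promoters of interferon-stimulated genes called lower (37.5%), in 2.79% of the promoters of tested genes and in 2.98% of all promoters. Of promoters of genes called higher 1.83% held it, and of those of genes called lower 3.87%. Among the 138 promoters of genes called and at least 4-fold lower it was in 16 (11.6%), and in 14 of 135 (10.4%) when the interferon-stimulated list was left out. The share among genes at least 4-fold lower rests on the scale. It was 4.74% with a pseudocount of 0.1 RPKM, 6.67% with 5 RPKM, 8.33% on the deposited scale and 4.44% with limma-voom on recovered reads. Each of these changes which genes pass 4-fold. Of the other motifs, the AP-1 and NF-kB sites were each in 4 of the 16 promoters of listed genes called lower (25%). The CRE, CArG box and E-box were in 0. Whether the ISRE has a part in the falls was not tested. Its share among list members not called lower was not computed. The 5 list members with a match and the largest falls are shown: Oas3 (chr5:120777695-120777764, minus strand), Ifit1 (chr19:34640774-34640843, plus strand), Ifit3 (chr19:34583377-34583446, plus strand), Trim30a (chr7:104465194-104465259, minus strand) and Bst2 (chr8:71537563-71537632, minus strand), on the strand of the gene, with every base covered by a match on either strand in capitals. In Ifit1, Ifit3 and Trim30a the matches are on the opposite strand and appear as their reverse complement. The Ifit1 window holds 2 separate matches, the Bst2 window 2 that overlap, and each of the other windows 1.
Oas3: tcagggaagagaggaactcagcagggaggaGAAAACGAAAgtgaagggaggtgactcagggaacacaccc
Ifit1: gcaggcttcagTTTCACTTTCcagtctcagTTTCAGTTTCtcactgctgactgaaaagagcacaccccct
Ifit3: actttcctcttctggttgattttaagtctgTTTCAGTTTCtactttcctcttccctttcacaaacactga
Trim30a: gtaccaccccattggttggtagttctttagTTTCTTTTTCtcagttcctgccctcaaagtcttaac
Bst2: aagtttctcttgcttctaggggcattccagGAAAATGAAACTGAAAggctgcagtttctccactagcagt

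Ifit1, Ifit3, Trim30a and Bst2 were named after their values were seen, because their promoters hold the element. Ifit1, which encodes a protein that binds viral RNA, had 7.36 and 9.997 RPKM in WT and 5.99 and 7.11 RPKM in Ikaros-Zn4-/- cells at 0 min, against 0.251 and 0.573 RPKM at 120 min (log2 change -2.27, SE 0.21, adjusted p = 0.000293). Ifit3, of the same family, had 9.77 and 10.6 RPKM in WT and 6.96 and 9.67 RPKM in Ikaros-Zn4-/- cells at 0 min, against 1.64 and 1.56 RPKM at 120 min (log2 change -1.64, SE 0.15, adjusted p = 0.00032). Trim30a, a ubiquitin ligase gene, had 26.3 and 27.7 RPKM in WT and 34.5 and 37.1 RPKM in Ikaros-Zn4-/- cells at 0 min, against 6.704 and 9.34 RPKM at 120 min (log2 change -1.52, SE 0.10, adjusted p = 0.000119). Bst2, tetherin, which holds virus particles at the cell surface, had 89.95 and 84.8 RPKM in WT and 78.1 and 101 RPKM in Ikaros-Zn4-/- cells at 0 min, against 18.7 and 50.2 RPKM at 120 min (log2 change -1.16, SE 0.31, adjusted p = 0.0179), with the WT library the lower at 120 min.

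**Figure D4:**
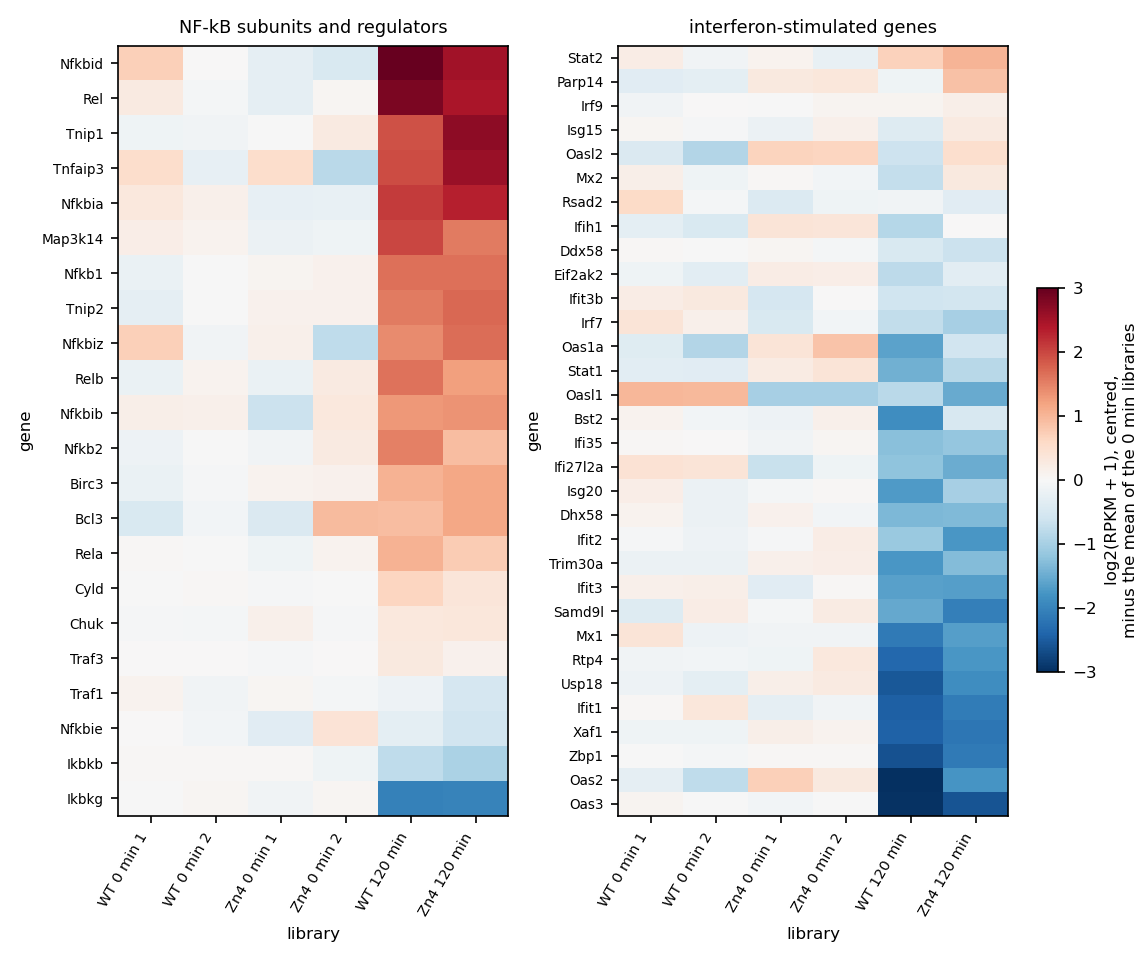
Centred log2(RPKM + 1) in each of the 6 libraries minus the mean of the 4 libraries at 0 min, for NF-kB subunits and regulators (left) and interferon-stimulated genes (right), ordered by change; the colour scale ends at 3 in either direction. Both stimulated libraries are red for most NF-kB members and blue for most interferon-stimulated genes, with Ikbkg and Stat2 at the opposite ends.

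GIMAP GTPases, a lymphocyte family linked to survival, lie in 1 cluster on chromosome 6. Of them, 1 of 8 were called higher and 6 lower (median -1.43; 0 and 6 on the deposited scale). Gimap3 had 365 and 377 RPKM in WT and 269 and 286 RPKM in Ikaros-Zn4-/- cells at 0 min, against 73.9 and 32.98 RPKM at 120 min (log2 change -2.35, SE 0.17, adjusted p = 0.000151). Gimap8 and Gimap7 fell by 1.91 and 1.80. Gimap9, the member called higher, had a change of 0.29 (adjusted p = 0.0481) that turned to -0.03 on the deposited scale and after quantile normalization and was not called without any 1 of 5 of the 6 libraries. MHC class I presentation genes were also mostly lower: 4 of 20 were called higher and 13 lower (median -0.54; 4 and 13 on the deposited scale). Without the WT or the Ikaros-Zn4-/- library at 120 min 8 and 7 were lower. Psmb9, a subunit of the immunoproteasome, had 38.4 and 41.2 RPKM in WT and 52.7 and 64.7 RPKM in Ikaros-Zn4-/- cells at 0 min, against 7.39 and 9.09 RPKM at 120 min (log2 change -2.10, SE 0.12, adjusted p = 0.000108), and Nlrc5, the transactivator of class I genes, fell from 81.1–119 to 25.9 and 28.6 RPKM (log2 change -1.51, SE 0.14, adjusted p = 0.000298). H2-T23, a nonclassical class I gene, fell by 1.76. Calr, the chaperone calreticulin, rose from 119.5–180.3 to 368 and 429 RPKM (log2 change 1.74, SE 0.11, adjusted p = 0.00012). The class I genes H2-Q6 and H2-Q4 were called higher by 1.43 and 0.97, but paralogs of the Q region are near-identical and their values are uncertain.

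Growth after stimulation needs nutrients, and their carriers are described first. Of amino acid and ion transporters, 14 of 21 were called higher and 4 lower (median 0.59; 9 and 5 on the deposited scale). Slc38a2, a transporter of glutamine and other neutral amino acids, had 87.2 and 65.5 RPKM in WT and 84.4 and 51.6 RPKM in Ikaros-Zn4-/- cells at 0 min, against 546 and 802 RPKM at 120 min (log2 change 3.53, SE 0.29, adjusted p = 0.000215). Slc7a5 and Slc3a2, the chains of the large neutral amino acid transporter, rose from 13.96–21.4 to 68.6 and 89.8 RPKM (log2 change 2.53, SE 0.13, adjusted p = 9.58e-05) and from 36.7–45.6 to 125 and 128 RPKM (log2 change 1.94, SE 0.12, adjusted p = 0.000117). Slc19a1, a folate carrier, fell by 1.15. In the glycolytic list, 14 of 22 were called higher and 3 lower (median 0.47; 7 and 4 on the deposited scale), and without the Ikaros-Zn4-/- library at 120 min 6 were higher. The largest rises in it were of the glucose transporter gene Slc2a1 (15.1 and 14.4 RPKM in WT and 15.4 and 14.9 RPKM in Ikaros-Zn4-/- cells at 0 min, 64.1 and 114 RPKM at 120 min), the lactate transporter gene Slc16a1 (10.3–13.6 to 55.3–77.2 RPKM) and of the hexokinase gene Hk2. Hk2 had 0.593 and 0.358 RPKM in WT and 1.71 and 1.71 RPKM in Ikaros-Zn4-/- cells at 0 min, against 4.17 and 21.6 RPKM at 120 min, higher in Ikaros-Zn4-/- cells at both times (log2 change 2.76, SE 0.30, adjusted p = 0.000545). Pfkm, a phosphofructokinase, fell by 1.19 and Pdk1, the kinase that inhibits pyruvate dehydrogenase, by 0.84. Eno1, enolase, fell by 0.87, with uncertain values because of its pseudogenes.

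Polyamine synthesis and Myc partner genes were largely higher, since 12 of 17 were called higher and 1 lower (median 0.61; 7 and 3 on the deposited scale). Amd1, S-adenosylmethionine decarboxylase, had 2.85 and 1.895 RPKM in WT and 2.62 and 2.91 RPKM in Ikaros-Zn4-/- cells at 0 min, against 18.8 and 26.1 RPKM at 120 min (log2 change 3.03, SE 0.18, adjusted p = 0.000113). Odc1, ornithine decarboxylase, the first enzyme of the pathway, had 15.5 and 11.6 RPKM in WT and 28.8 and 14.99 RPKM in Ikaros-Zn4-/- cells at 0 min, against 37.8 and 144 RPKM at 120 min, with the Ikaros-Zn4-/- library well above the WT library at 120 min (log2 change 2.41, SE 0.39, adjusted p = 0.00247). Mxi1, a Max partner that opposes Myc, rose by 2.20 and Mlx, a Max-like partner, fell by 1.32. Of ribosome biogenesis factors, 20 of 39 were called higher and 3 lower (median 0.45; 17 and 9 on the deposited scale), and without the Ikaros-Zn4-/- library at 120 min 13 were higher. Nop56, a core protein of box C/D snoRNPs, had 40.03 and 37.8 RPKM in WT and 41.6 and 36.5 RPKM in Ikaros-Zn4-/- cells at 0 min, against 75.9 and 96.1 RPKM at 120 min (log2 change 1.44, SE 0.14, adjusted p = 0.000352), and Gnl3, nucleostemin, rose from 29.6–40.03 to 53.6 and 79.8 RPKM. Ubtf, the factor for RNA polymerase I, fell by 1.10 and Rrp1b by 1.48. Of translation factors, 16 of 36 were called higher and 3 lower (median 0.37; 10 and 9 on the deposited scale). Etf1, the release factor, rose from 18.6–26.04 to 59.02 and 76.1 RPKM (log2 change 1.81, SE 0.11, adjusted p = 0.000117), Eif5b and Eif5 by 1.39 and 1.34, while Eef2k, the kinase that inhibits elongation, fell from 2.77–3.72 to 0.359 and 0.455 RPKM (log2 change -1.25, SE 0.15, adjusted p = 0.000759).

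For cytosolic ribosomal protein genes the direction depended on the scaling, since 5 of 36 were called higher and 2 lower (median 0.28; 0 and 4 on the deposited scale), 1 and 2 after quantile normalization, and 20 and 1 with limma-voom. Without the Ikaros-Zn4-/- library at 120 min none was called. Many of them have near-identical pseudogenes and their values are uncertain. Cytosolic tRNA synthetases were split, since 6 of 20 were called higher and 5 lower (median 0.06; 3 and 9 on the deposited scale), and 4 and 7 after quantile normalization. Aars, the alanyl enzyme, rose by 1.30, and Dars, the aspartyl enzyme, fell by 1.76. Wars, the tryptophanyl enzyme, fell from 17.4–27.9 to 4.23–4.95 RPKM. Nucleotide synthesis enzymes were split as well: 9 of 26 were called higher and 11 lower (median -0.34; 3 and 15 on the deposited scale), with 5 and 7 without the Ikaros-Zn4-/- library at 120 min. Impdh2, the enzyme that commits purine synthesis to GTP, rose from 6.63–12.7 to 14.1 and 23.3 RPKM (log2 change 1.23, SE 0.18, adjusted p = 0.00168). Dtymk, thymidylate kinase, fell from 14.2–21.6 to 2.61 and 3.39 RPKM (log2 change -1.89, SE 0.12, adjusted p = 0.000116), and Prps2 and Pfas, of purine synthesis, by 1.84 and 1.80. Among serine and one-carbon enzymes, 4 of 15 were called higher and 6 lower (median -0.20; 3 and 7 on the deposited scale). The lower calls fell to 3, 2 and 1 without WT 0 min replicate 2, the WT library at 120 min and the Ikaros-Zn4-/- library at 120 min. Mthfd2, a mitochondrial folate enzyme, rose by 0.92 and Psph, phosphoserine phosphatase, fell by 0.96. Of sterol synthesis genes, 10 of 26 were called higher and 5 lower (median 0.22; 8 and 7 on the deposited scale). The largest rises of that list were of the cholesterol exporters Abcg1 (21.8–25.2 to 52.6–84.3 RPKM) and Abca1 (3.35–6.04 to 7.86–19.5 RPKM) and of the synthesis enzyme gene Cyp51 (2.75–3.68 to 9.58–9.82 RPKM), and Mvd, mevalonate diphosphate decarboxylase, fell by 0.93.

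Unfolded protein and integrated stress response genes were mostly higher: 15 of 22 were called higher and 4 lower (median 1.01; 12 and 4 on the deposited scale). Eif2ak3, the endoplasmic reticulum kinase PERK, had 7.36 and 8.06 RPKM in WT and 13.4 and 13.3 RPKM in Ikaros-Zn4-/- cells at 0 min, against 82.1 and 129.7 RPKM at 120 min (log2 change 3.55, SE 0.10, adjusted p = 8.23e-05). Sesn2, a sestrin that restrains mTORC1, had 2.25 and 2.85 RPKM in WT and 1.19 and 2.56 RPKM in Ikaros-Zn4-/- cells at 0 min, against 19.4 and 26.4 RPKM at 120 min (log2 change 3.23, SE 0.26, adjusted p = 0.0002). Hspa5, the chaperone BiP, rose from 164–202 to 505 and 813 RPKM (log2 change 2.11, SE 0.20, adjusted p = 0.000349). Pdia4, a protein disulfide isomerase of the same compartment, fell by 0.57 (adjusted p = 0.00263). The chaperonin and heat shock list had no direction of its own, since 6 of 26 were called higher and 4 lower (median -0.03; 2 and 9 on the deposited scale), and 4 and 7 after quantile normalization. It had 2 higher without the Ikaros-Zn4-/- library and 1 lower without the WT library at 120 min. Hspa4 and Hspa9, the mitochondrial Hsp70, rose by 1.52 and 1.22. For proteasome subunits, 8 of 30 were called higher and 4 lower (median 0.15; 2 and 8 on the deposited scale), and 4 and 7 after quantile normalization, and without the WT library at 120 min 2 were higher and 1 lower. Without the Ikaros-Zn4-/- library at 120 min 4 were higher and 1 lower, and without either WT library at 0 min 1 was lower. Psmd1, a subunit of the regulatory particle, rose by 1.12 (adjusted p = 0.000877).

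Of nuclear genes of oxidative phosphorylation, 2 of 33 were called higher and 17 lower (median -0.43; 0 and 26 on the deposited scale), and 11 were lower without the WT library at 120 min. Ndufb3, a subunit of complex I, had 21.8 and 28.8 RPKM in WT and 36.4 and 35.8 RPKM in Ikaros-Zn4-/- cells at 0 min, against 5.74 and 7.83 RPKM at 120 min (log2 change -1.69, SE 0.12, adjusted p = 0.000157), and Sdhc and Sdha of complex II fell by 1.49 and 1.37. The 2 members called higher, Atp5a1 and Atp5b of the ATP synthase, had 0.46 and 0.36, and neither was called on the deposited scale (limma, adjusted p = 0.424 and 0.825) or without either library at 120 min. Of mitochondrial mRNAs, 4 of 7 were called higher and 0 lower (median 0.43; 0 and 0 on the deposited scale), 0 were higher without either library at 120 min, and 1 or 2 without any 1 of WT 0 min replicate 1 and the Ikaros-Zn4-/- libraries at 0 min.

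Of cell cycle genes, 15 of 28 were called higher and 4 lower (median 0.84; 13 and 7 on the deposited scale). Beside Cdkn1a, Cdt1, a licensing factor of replication origins, had 34.9 and 33.8 RPKM in WT and 16.8 and 26.5 RPKM in Ikaros-Zn4-/- cells at 0 min, against 85.9 and 78.8 RPKM at 120 min (log2 change 1.90, SE 0.21, adjusted p = 0.000544), and Ccne2, cyclin E2, rose from 0.258–0.572 to 2.15 and 3.202 RPKM (log2 change 1.72, SE 0.21, adjusted p = 0.000752). The resting values of Ccne2 lay on both sides of the 0.5 RPKM used as the filter on low values. Cdk4, the G1 kinase, fell from 31.7–38.8 to 9.91 and 12.98 RPKM (log2 change -1.26, SE 0.10, adjusted p = 0.000225). In the BCL2 family and death receptor list, 8 of 22 were called higher and 3 lower (median 0.26; 4 and 5 on the deposited scale), and 4 or 5 were higher without any 1 of WT 0 min replicate 1, WT 0 min replicate 2, Ikaros-Zn4-/- 0 min replicate 2 or the WT library at 120 min. Bcl2l11, the death-promoting BIM, had 9.603 and 11.2 RPKM in WT and 8.36 and 9.098 RPKM in Ikaros-Zn4-/- cells at 0 min, against 39.6 and 31.6 RPKM at 120 min (log2 change 2.11, SE 0.10, adjusted p = 9.58e-05), and Bbc3, PUMA, rose from 7.77–17.5 to 23.2 and 27.98 RPKM. Bcl2, the survival factor, fell from 13.3–17.9 to 3.83 and 4.32 RPKM (log2 change -1.40, SE 0.14, adjusted p = 0.000424).

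In the list of mRNA decay regulators 17 of 25 were called higher and 0 lower (median 0.71; 13 and 0 on the deposited scale). Zc3h12a, the endonuclease Regnase-1, had 19.8 and 16.2 RPKM in WT and 12.7 and 14.2 RPKM in Ikaros-Zn4-/- cells at 0 min, against 90.9 and 76.3 RPKM at 120 min (log2 change 2.68, SE 0.14, adjusted p = 9.58e-05). Tob2, an antiproliferative protein that recruits deadenylases, had 66.8 and 38.6 RPKM in WT and 32.4 and 29.6 RPKM in Ikaros-Zn4-/- cells at 0 min, against 238 and 241 RPKM at 120 min (log2 change 2.88, SE 0.28, adjusted p = 0.000355). Of nuclear transport and pore genes, 19 of 34 were called higher and 4 lower (median 0.51; 13 and 7 on the deposited scale). Nup98, a mobile nucleoporin, had 15.5 and 15.3 RPKM in WT and 16.2 and 16.3 RPKM in Ikaros-Zn4-/- cells at 0 min, against 111 and 126 RPKM at 120 min (log2 change 3.15, SE 0.10, adjusted p = 9.13e-05). Nup153, of the nuclear basket, had 41.3 and 41.2 RPKM in WT and 54.1 and 54.2 RPKM in Ikaros-Zn4-/- cells at 0 min, against 156 and 241 RPKM at 120 min (log2 change 2.34, SE 0.11, adjusted p = 9.58e-05). Nup210, a membrane nucleoporin, fell from 91.99–96.8 to 44.99 and 45.99 RPKM (log2 change -0.71, SE 0.09, adjusted p = 0.0011). For chromatin remodelling and histone modifying genes, 18 of 34 were called higher and 9 lower (median 0.40; 13 and 13 on the deposited scale). The 3 largest rises were of histone demethylase genes, Kdm2b (3.25–4.08 to 40.02–47.7 RPKM), Kdm5b (4.22–5.73 to 24.6–27.2 RPKM) and Kdm6b (16.3–29.7 to 89.2–109 RPKM). Hdac7, a class IIa deacetylase, fell from 86.9–124 to 21.01 and 24.4 RPKM (log2 change -1.90, SE 0.14, adjusted p = 0.00017).

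In the Ikaros family, 4 of 5 were called higher and 1 lower (median 0.77; 2 and 1 on the deposited scale), and 2 were higher without either library at 120 min. Ikzf2, Helios, had 2.005 and 2.06 RPKM in WT and 8.14 and 6.19 RPKM in Ikaros-Zn4-/- cells at 0 min, against 7.21 and 15.98 RPKM at 120 min (log2 change 1.57, SE 0.16, adjusted p = 0.000441), and Ikzf3, Aiolos, had 28.8 and 29.7 RPKM in WT and 69.7 and 63.0 RPKM in Ikaros-Zn4-/- cells at 0 min, against 10.03 and 22.3 RPKM at 120 min (log2 change -1.17, SE 0.10, adjusted p = 0.00028). Both were higher in Ikaros-Zn4-/- cells in each library of the same time. Ikzf1 had a change of 0.36 (adjusted p = 0.0205) and lost its call on the deposited scale (adjusted p = 0.793) and without either library at 120 min. Among Notch pathway genes, 7 of 15 were called higher and 5 lower (median 0.61; 6 and 5 on the deposited scale). Dtx1, the Notch target Deltex1, had 104 and 101 RPKM in WT and 58.6 and 120.0 RPKM in Ikaros-Zn4-/- cells at 0 min, against 9.29 and 10.5 RPKM at 120 min (log2 change -2.78, SE 0.27, adjusted p = 0.000377), and its relative Dtx3 fell by 1.74, while Maml1, a coactivator of Notch, rose from 14.9–18.8 to 44.9 and 49.6 RPKM (log2 change 1.78, SE 0.10, adjusted p = 0.000102). Actin cytoskeleton and integrin genes were mostly lower: 5 of 34 were called higher and 19 lower (median -0.57; 3 and 24 on the deposited scale). Itgb7, the integrin beta 7 chain, had 389.7 and 383 RPKM in WT and 440.0 and 445 RPKM in Ikaros-Zn4-/- cells at 0 min, against 53.5 and 79.6 RPKM at 120 min (log2 change -2.32, SE 0.13, adjusted p = 0.000108). Itgae, its alpha E partner, fell from 70.3–94.5 to 18.4 and 27.6 RPKM and Tmsb4x, thymosin beta 4, an actin-binding peptide, from 1603–1948 to 511 and 519 RPKM. Ezr, ezrin, rose from 138–162 to 250.1 and 304 RPKM (log2 change 1.22, SE 0.12, adjusted p = 0.000382). Of lysosome and autophagy genes, 9 of 28 were called higher and 11 lower (median -0.04; 6 and 13 on the deposited scale), and 7 were lower without the Ikaros-Zn4-/- library at 120 min. The autophagy genes Gabarapl1 (3.57–11.2 to 20.3–42.05 RPKM), Ulk1 (9.47–11.6 to 32.8–59.1 RPKM) and Sqstm1 (62.2–71.4 to 248–256 RPKM) rose. The lysosomal enzyme genes Gusb (11.3–12.8 to 1.801–2.05 RPKM), Ctsa (31.6–47.9 to 7.58–10.3 RPKM) and Hexa (17.02–24.98 to 4.31–8.07 RPKM) fell. Of 12 common reference genes, 4 of 12 were called higher and 4 lower (median -0.20; 3 and 5 on the deposited scale), and 1 was higher without the Ikaros-Zn4-/- library at 120 min.

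Several small counts in the less frequent direction rest on 1 library. Without the Ikaros-Zn4-/- library at 120 min the members called lower went from 3 to 1 for cytokines, from 3 to 1 for translation factors, from 4 to 1 for the unfolded protein response, from 4 to 1 for cell cycle genes and from 4 to 2 for nuclear pore genes. For transporters they went from 4 to 2 without that library, WT 0 min replicate 2 or Ikaros-Zn4-/- 0 min replicate 2. For sterol genes they went from 5 to 3 without either library at 120 min, and actin genes called higher likewise from 5 to 3. Without the WT library at 120 min the members called lower went from 2 to 1 for the immediate early genes and for the activation transcription factors, and from 4 to 2 for cell cycle genes. They went from 1 to 2 for the MAP kinase feedback regulators without Ikaros-Zn4-/- 0 min replicate 2, and from 1 to 2 for polyamine synthesis and Myc partners without Ikaros-Zn4-/- 0 min replicate 1.

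Whether the genotypes responded alike was asked in each genotype alone, with the 1 library at 120 min assumed to vary like the other groups. In WT cells 5223 genes were called (42.9%), 2701 higher and 2522 lower, and in Ikaros-Zn4-/- cells 5548 (45.6%), 2857 and 2691. The genotypes share no library, but each gene has 1 estimate of spread for both genotypes. Of the genes higher in WT cells 84.7% were also higher in Ikaros-Zn4-/- cells, which is 80.1% of the latter, 2289 genes in all. Of the genes lower in WT cells 81.5% were also lower in Ikaros-Zn4-/- cells (76.4% of the latter, 2056 genes), and 4 were called in opposite directions. Pearson's r of the changes across genes was 0.856, a description over genes that are not independent. The test of the difference in response called 0 genes (0.0%; limma, smallest adjusted p = 0.157), with 729 (5.99%) at an unadjusted p below 0.05. With 1 library per genotype at 120 min this does not show that the responses were alike. With other settings 0 to 3 genes were called.

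The genes with the smallest p of that difference were short models: Gm25809, Gm24366, Mir6997 and Mir7086, which encode small RNAs, and the pseudogene Gm12240. Gm25809, Mir6997 and Mir7086 were listed at 0 in every library at 0 min and in the WT library at 120 min, and at 10.4, 7.65 and 5.01 RPKM in the Ikaros-Zn4-/- library at 120 min. Gm25809, Mir6997 and Mir7086 thus passed the filter on low values only through the Ikaros-Zn4-/- library at 120 min. Gm24366 was at 17.01–28.4 RPKM at 0 min, 14.4 RPKM in WT at 120 min and listed at 0 in Ikaros-Zn4-/- cells. Among gene models of at least 300 bases, a choice made after these values were seen, 0 of 11423 genes were called (697 at an unadjusted p below 0.05, smallest adjusted p = 0.406). Ccl4, a chemokine, led them, with 1.27 and 1.02 RPKM in WT and 0.909 and 1.35 RPKM in Ikaros-Zn4-/- cells at 0 min, against 2.74 and 20.2 RPKM at 120 min. Tmem176b, a membrane protein gene, had 0.818 and 0.824 RPKM in WT and 85.7 and 91.1 RPKM in Ikaros-Zn4-/- cells at 0 min, against 0.976 and 21.4 RPKM at 120 min, so it was lower at 120 min in Ikaros-Zn4-/- cells and near 1 RPKM in WT cells at both times. Cerk, ceramide kinase, had 13.1 and 12.4 RPKM in WT and 19.8 and 20.8 RPKM in Ikaros-Zn4-/- cells at 0 min, against 28.2 and 14.7 RPKM at 120 min. In each of these genes the difference in response was not past the threshold.

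Called genes were compared for size, over the 9699 protein-coding genes tested. Of genes spanning under 5 kb from start to end 18.4% were called higher and 35% lower, with a median change of -0.26. For genes of 50 to 100 kb the shares were 42.5% and 22.5% (median 0.26), and for genes of 100 kb or more 40.8% and 17.5% (median 0.23). Genes called higher spanned a median of 30.6 kb, genes called lower 18.2 kb and all protein-coding genes 22.8 kb. Exon length moved with span: of genes with under 1.5 kb of exon 16.8% were called higher and 37.6% lower, and of those with 6 kb or more 41.5% and 23.8%. Within exon lengths of 2.5 to 4 kb the share called higher was 21.3% for spans under 10 kb, 28.1% for 10 to 50 kb and 26.7% for 50 kb or more, so the highest share was in the middle class. Within 4 to 6 kb it was 26.3%, 31.3% and 37.1%. In WT cells the median was -0.26 under 5 kb and 0.25 at 100 kb or more, and in Ikaros-Zn4-/- cells -0.21 and 0.22. On the deposited scale all size classes had medians below 0, from -0.58 under 5 kb to -0.06 at 50 to 100 kb. The part of exon length or other properties in the gradient over span was not tested further.

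**Figure D5:**
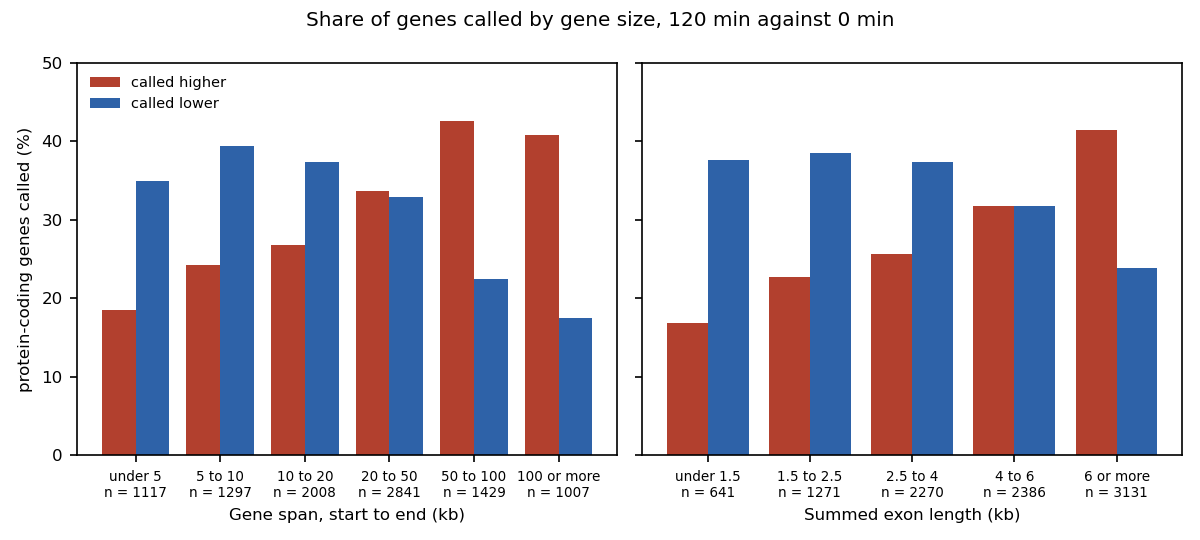
Percent of tested protein-coding genes called higher (red) and lower (blue) at 120 min, by gene span (left) and by summed exon length (right), with the number of genes in each class. The share called higher is 18.4% in the shortest and 40.8% in the longest span class, while the share called lower goes from 35% to 17.5%.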

How the data were processed

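RNA was sequenced with a kit that does not mark strand, per the labels' protocols, and the authors deposited 1 RPKM value per gene and library. The submitters' processing notes name TopHat2 2.0.12, TopHat and HTSeq 0.6.1 and the builds mm10 and GRCm38. The authors' annotation and gene lengths are not stated in the sources used here. Every gene in the deposited table of 12637 reaches a mean of 1 RPKM in at least 1 of the 6 groups. Of its identifiers 12567 were found in GENCODE M21. Reads of genes on opposite strands cannot be told apart.

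Depth was recovered from steps of the RPKM values with the summed exon lengths of GENCODE M21: 65.8% to 71.2% of values below 200 reads lay within 0.01 read of a whole number (2% by chance), and the recovered reads sum to 94.0% to 101% of the depth.

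Genes averaging 0.5 RPKM or more across the 6 libraries were tested in R 4.3.3 with limma 3.58.1 (intensity trend) on log2(RPKM + 1), with genotype and time as terms (3 residual degrees of freedom). Comparisons within a genotype and of the genotypes' responses used 1 mean per group over all 10 libraries (4 residual degrees of freedom). On simulated data 98 of 200 genes changed by 1 on the log2 scale were recovered among 12173 (49.0%, 5 false calls), and 153 of 200 changed by 2 (76.5%, 7 false calls). Only these 200 genes were changed, with spread taken from the library pairs at 0 min, while 57.3% of tested genes were called in the data. These rates therefore do not give the recovery in the comparison itself. Plots used matplotlib 3.10.9 under Python 3.11.15.

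The comparison and the 44 gene lists (899 genes) were chosen with earlier results of these data known. Lists are described by counts and medians, with no test of the list. Named were the 15 largest rises and falls among called genes whose groups do not overlap. In each list the 3 called members with the largest change in each direction were named, or the largest if none was called; further, Ikzf1, Cd8a and Cd8b1, the 5 smallest p of the genotype difference, and up to 10 genes of the on and off sets. Not all genes of the rule are discussed, and some are not reported here. Alternatives changed the pseudocount (0.1 and 5 RPKM), the filter (none, 2 RPKM), the scaling, the fit and the libraries.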

Additional observations from a re-analysis of the deposited data

How the results depend on the processing

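The count of called genes over both genotypes stayed within 1.5 times under every alternative run, from 4903 without the Ikaros-Zn4-/- library at 120 min to 7628 with limma-voom on recovered reads. On the deposited scale fewer were higher, with 2366 higher over both genotypes, 1780 in WT and 1852 in Ikaros-Zn4-/- cells. Leaving out 1 library gave 2498 to 3417 higher and 2405 to 3317 lower. The difference in response between genotypes, with 0 calls, had 1 (lower) with a pseudocount of 0.1 RPKM, 3 (higher) with 5 RPKM and 0 to 1 with 1 library left out (1 without either WT library at 30 min), and 0 in the other alternatives run. The Gimap9 change turned to -0.0328 on the deposited scale and -0.02746 after quantile normalization. Gm12240, at 0.01, had 1.71 without the WT and -1.69 without the Ikaros-Zn4-/- library at 120 min. Of 251 named genes that were called, 203 to 243 kept their call with 1 library left out and 234 to 248 under the other alternatives run, of which the filter at 2 RPKM left 6 and the minimum model length 5 untested. Calls were fewest without the Ikaros-Zn4-/- library at 120 min. The medians of genes of at least 100 kb and under 5 kb differed by 0.49, and by 0.24 to 0.60 under the alternatives. With the replicate block, taking the 120 min libraries as number 1 or as number 2, 3300 and 3270 genes were called higher and 3111 and 3098 lower. With number 2 the calls of Jun (ENSMUSG00000052684) and Hspa1b (ENSMUSG00000090877) were lost (limma, adjusted p = 0.0773 and 0.0887), with number 1 they were not (0.0245 and 0.0438). Both were tried because the labels disagree on that number. Same-numbered libraries had deviations that correlated with r of 0.040 to 0.240 across genes over 6 pairs of groups, so the numbers were not taken to pair the samples. The models of at least 300 bases and limma-voom were added after the data were seen. With recovered depths of 4.504 to 13.3 M reads, changes of genes near 1 RPKM rest on few reads.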
